A study of Mus musculus with 42 samples.

Results

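The nuclear genes for proteins of the mitochondrial ribosome were described across 42 mouse brain libraries. They were the protein-coding genes whose symbol is Mrpl or Mrps followed by a number and at most a letter a, b or c. This rule, applied to the gene symbols of the GENCODE M21 annotation, found 78 genes among the 54232 genes of the deposited tables, 49 named Mrpl and 29 named Mrps. They lay on 17 chromosomes, with 11 on chromosome 11 and 8 on chromosome 17.

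The libraries carried 2 region labels, hippocampus and cerebellum, and 4 group labels in each, which are called here western NaKtide (labelled Western Diet + NaKtide), western (Western Diet), control NaKtide (Control + NaKtide) and control (Control). All mice were on their diet for 12 weeks, a western diet with 42% fat or normal chow with 11% fat. NaKtide is a short peptide with the sequence of a stretch of the sodium pump (Na,K-ATPase), designed to keep the pump from activating Src kinase. It was expressed from a transgene induced by 300 mg/kg doxycycline in the diet, so transgene, doxycycline and peptide came together. The labels do not say whether the mice of the western and control groups carried the transgene or received doxycycline, nor do they give strain, sex, age or the promoter of the transgene. The hippocampus label held 6 western NaKtide, 5 western, 5 control NaKtide and 6 control libraries, and the cerebellum label 5 libraries in each group. Nothing in the labels says that the libraries of a group came from separate animals, so the p-values measure the spread between these libraries only, which may be technical.

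Mitochondria keep their own ribosome, which translates the few messenger RNAs of the mitochondrial genome, all of them for subunits of the respiratory chain and ATP synthase. Its RNAs are made in the organelle, while its proteins come from nuclear genes, are made by cytosolic ribosomes and are imported. Some of them descend from bacterial ribosomal proteins (called conserved here), and others were added in mitochondria (called mitochondria-specific). Neurons depend on oxidative phosphorylation, and in humans inherited defects of several of these proteins cause disease of brain, heart and muscle.

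Library totals ran from 4669374 to 9521002 counts, and the 78 genes together held 13878 to 30502 counts of a library. The series' design text names liver and adipose tissue, whereas its title and the sample labels name brain, and the labels were followed here. The region labels were only partly borne out by marker genes. CPM are counts scaled to library size, with TMM factors except in this check of Gabra6 and Prox1. In 14 of 20 libraries labelled cerebellum, Gabra6, which marks granule cells of the cerebellum, was below 1 CPM. It reached 10 CPM in 3 of these 20 and in 1 of 22 libraries labelled hippocampus. Prox1, a transcription factor of dentate granule cells, ran from 4.31 to 105.9 CPM in libraries labelled hippocampus and from 5.83 to 33.5 CPM in those labelled cerebellum. The labels are therefore used as names only. In bulk tissue such as this, fewer cells of a type and less RNA per cell cannot be told apart.

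Of the 78 genes, 77 had enough counts for testing. Mrpl53, a mitochondria-specific protein of the large subunit, averaged 0.74 CPM over the 42 libraries and was not tested. On the authors' FPKM scale, which divides by gene length, the highest levels over all libraries were those of Mrps21, at 96.7 ± 30.6 FPKM (SD over 42 libraries), Mrpl41, at 69.5 ± 18.6, and Mrpl12, at 58.4 ± 16.9. Mrps21 is a conserved protein of the small subunit, Mrpl41 a mitochondria-specific protein of the large subunit, and Mrpl12 the protein of its flexible stalk, which is also known to bind the mitochondrial RNA polymerase. The lowest of the tested genes were Mrpl1, at 2.94 ± 0.42 FPKM, and Mrps35, at 3.37 ± 0.91 FPKM. The annotated exons of these genes together span 4295 and 8631 bases, against 739 bases in Mrps21, and FPKM falls with the length it is divided by.

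Summed over the 78 genes, the level was lowest in libraries labelled hippocampus western. The sum averaged 3249 ± 330 CPM in hippocampus western NaKtide (SD, n = 6) and 2406 ± 428 CPM in hippocampus western (n = 5). In hippocampus control NaKtide it averaged 3665 ± 326 CPM (n = 5), against 2942 ± 524 CPM in hippocampus control (n = 6). In the cerebellum label it averaged 3190 ± 761 CPM in western NaKtide, 3093 ± 233 in western, 2976 ± 402 in control NaKtide and 3851 ± 476 in control (n = 5 each). Ordered by their mean, all neighbouring groups overlapped in the range of their libraries. Hippocampus western had the lowest group mean for 69 of the 78 genes. The highest mean was that of cerebellum control for 46 genes and that of hippocampus control NaKtide for 17.

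**Figure D1:**
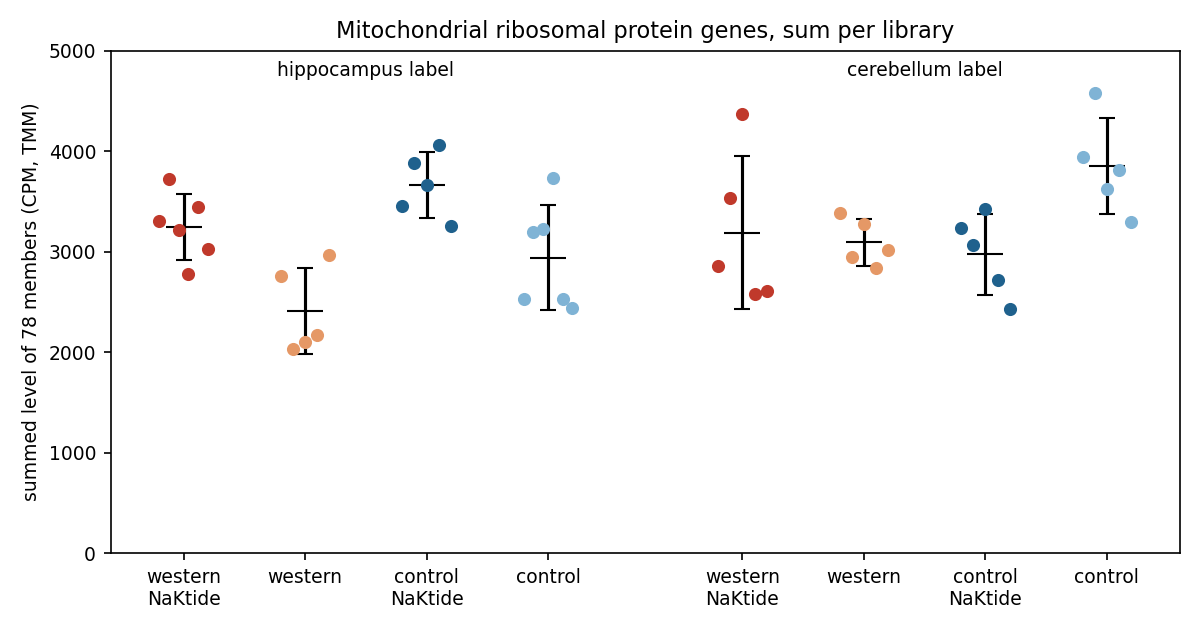
Summed level of the 78 mitochondrial ribosomal protein genes in CPM (y axis) in each of 42 libraries, by group and region label (x axis). Points are libraries, the black bar is the group mean and the whiskers are 1 SD. Hippocampus western averages 2406 CPM, the lowest of the 8 groups, and cerebellum control 3851 CPM, the highest.

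These genes changed with NaKtide on western diet in the libraries labelled hippocampus. Of the 77 genes tested, 41 rose and 1 fell in western NaKtide relative to western (edgeR adjusted p under 0.05, adjusted over all 16442 genes tested). The background was high, with 33.7% of all genes called, 17.4% higher and 16.3% lower. So the share of these genes called higher stood above that of all genes and the share called lower below it. Their median log2 fold change was 0.42, against 0.05 over all genes tested, and 71 of 77 fold changes were positive. By DESeq2 41 rose and 1 fell, with 36.8% of all genes called. For 11 genes every western NaKtide library lay above every western library, which held for 5.83% of all genes tested. These 11 were Mrpl11, Mrpl14, Mrpl16, Mrpl23, Mrpl24, Mrpl33, Mrpl55, Mrps9, Mrps21, Mrps26 and Mrps33.

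Both subunits took part. Of 30 conserved proteins of the large subunit 16 rose and none fell, with a median log2 fold change of 0.42. Of 20 tested mitochondria-specific proteins of the large subunit 9 rose, with a median of 0.34. Of 16 conserved proteins of the small subunit 10 rose, with a median of 0.53. Of 10 mitochondria-specific proteins of the small subunit 6 rose and 1, Mrps22, fell, with a median of 0.40. Mrps36, which carries a small subunit name but is now known as a part of the oxoglutarate dehydrogenase complex, is in none of these 4 lists.

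**Figure D2:**
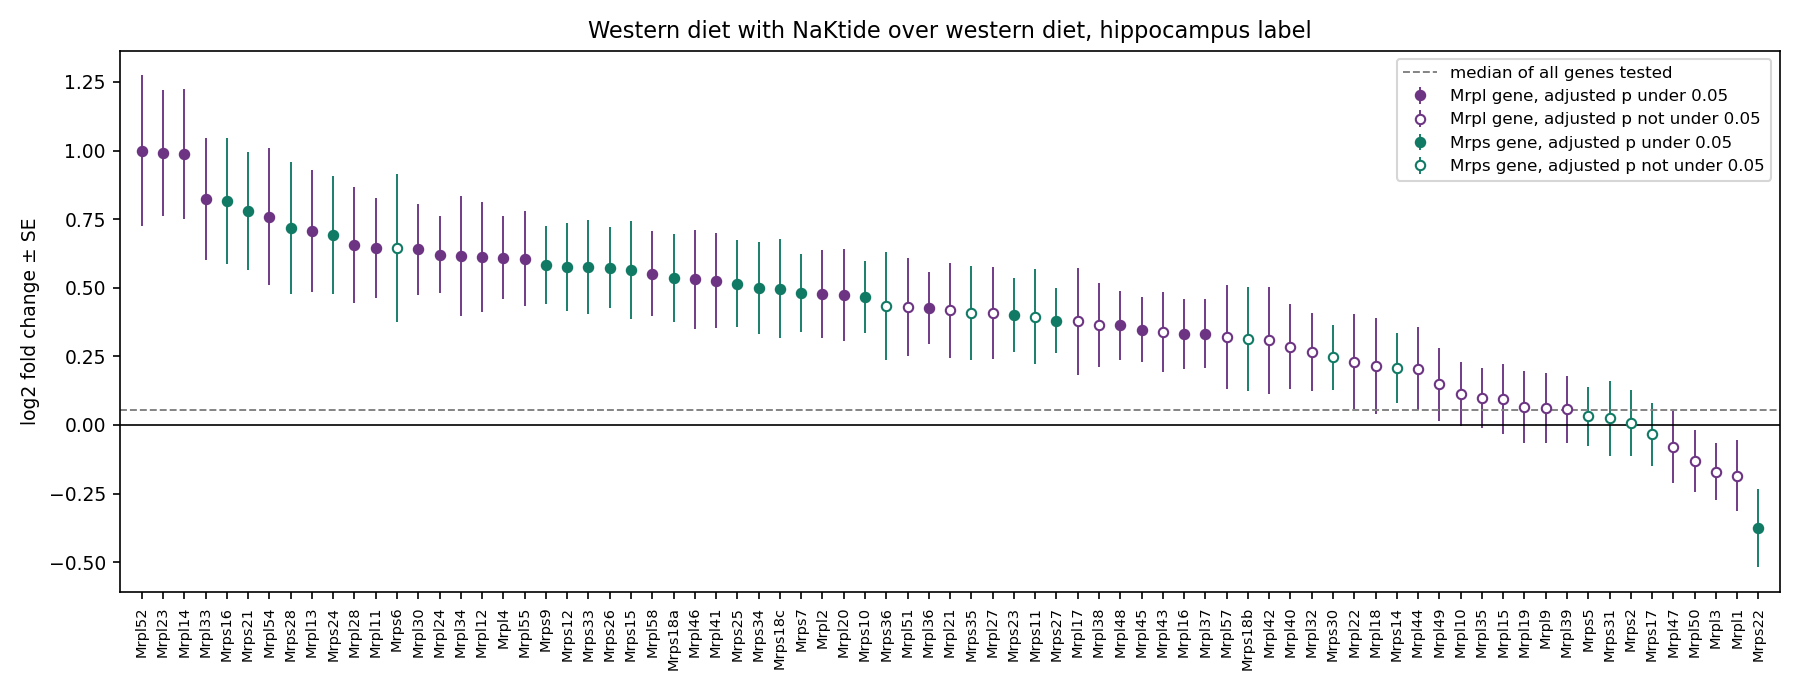
Log2 fold change of western NaKtide over western with its SE (y axis) for each of the 77 tested genes (x axis), in libraries labelled hippocampus. Filled points passed an edgeR adjusted p of 0.05, and the dashed line is the median of all genes tested, 0.05. The values run from 1.00 in Mrpl52 to -0.38 in Mrps22.

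The smallest p belonged to Mrpl24 (chr3:87919506-87923672, plus strand, GRCm38), a conserved large subunit protein of the region where the nascent chain leaves the ribosome. Mrpl24 had 31.6, 35.1 and 44.1 CPM as the lowest, median and highest of the 6 western NaKtide libraries, against 28.7, 19.3, 20.2, 19.0 and 29.2 CPM in the 5 western libraries. Western libraries 2, 3 and 4 were the low ones, libraries 1 and 5 came close to the lowest western NaKtide library, and the groups did not overlap. The log2 fold change was 0.62 (SE 0.14, edgeR adjusted p = 0.00427).

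Mrpl23 (chr7:142532686-142540747, plus strand), a conserved protein at the exit of the peptide tunnel, had 40.0, 55.5 and 64.4 CPM as lowest, median and highest in western NaKtide, against 35.0, 17.3, 21.3, 25.7 and 36.2 CPM in western. The log2 fold change was 0.99 (SE 0.23, edgeR adjusted p = 0.00475). The processed pseudogene Mrpl23-ps1 held 9979 counts over the 42 libraries, so reads may have been split between it and Mrpl23, and the counts of Mrpl23 are uncertain. Mrpl14 (chr17:45686322-45698495, plus strand) is a conserved protein at the face that meets the small subunit. It had 21.0, 28.4 and 44.7 CPM as lowest, median and highest in western NaKtide, against 16.9, 11.3, 12.9, 13.3 and 20.02 CPM in western, a log2 fold change of 0.99 (SE 0.24, edgeR adjusted p = 0.0054). In both genes the groups did not overlap.

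Mrpl52 (chr14:54426909-54429756, plus strand), a mitochondria-specific protein of the large subunit, had the largest rise. Its level was 33.9, 46.8 and 63.8 CPM as lowest, median and highest in western NaKtide, against 30.2, 17.6, 17.4, 16.1 and 37.8 CPM in western. Western library 5 lay above the lowest western NaKtide library, and the log2 fold change was 1.00 (SE 0.28, edgeR adjusted p = 0.0103). Mrpl33 (chr5:31596935-31664384, plus strand), a small conserved protein of the large subunit, had 21.97, 24.7 and 39.1 CPM in western NaKtide, in the same order, against 18.7, 11.7, 15.0, 13.7 and 20.7 CPM in western. It rose by 0.82 on the log2 scale (SE 0.22, edgeR adjusted p = 0.00917), without overlap. Its locus overlaps Gm43809 on the same strand and Rbks on the other.

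Mrpl30 (chr1:37890477-37898535, plus strand), another conserved large subunit protein, had 50.9, 61.4 and 81.1 CPM as lowest, median and highest in western NaKtide, against 46.5, 34.8, 39.6, 35.5 and 53.3 CPM in western. The rise was 0.64 on the log2 scale (SE 0.17, edgeR adjusted p = 0.00799), and 5 of 6 western NaKtide libraries lay above every western library. Mrpl4 (chr9:21002738-21008839, plus strand), which lines the peptide tunnel, had 55.8, 61.5 and 93.1 CPM in western NaKtide, in the same order, against 51.9, 35.6, 39.7, 34.7 and 59.9 CPM in western. It rose by 0.61 (SE 0.15, edgeR adjusted p = 0.00606), again with 5 of 6 libraries above all of western. Mrpl58 (chr11:115403752-115412674, plus strand) is a peptidyl-tRNA hydrolase that has become a part of the large subunit. It rose by 0.55 (SE 0.15, edgeR adjusted p = 0.0109), with a mean of 59.8 ± 9.73 CPM in western NaKtide (SD, n = 6) and 40.5 ± 5.99 CPM in western (n = 5).

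Among the abundant large subunit genes, Mrpl12 averaged 95.2 ± 15.8 CPM in western NaKtide and 62.1 ± 17.1 CPM in western, a log2 fold change of 0.61 (SE 0.20, edgeR adjusted p = 0.024). Mrpl41 averaged 64.4 ± 10.9 CPM in western NaKtide and 44.6 ± 10.2 CPM in western, a log2 fold change of 0.53 (SE 0.17, edgeR adjusted p = 0.0245). Both rose, and in each 4 of 6 western NaKtide libraries lay above every western library. Mrps18a and Mrps30 carry small subunit names but sit in the large subunit. Mrps18a rose by 0.54 (SE 0.16, edgeR adjusted p = 0.0151), while Mrps30 did not pass, at 0.25 (SE 0.12, edgeR adjusted p = 0.111).

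In the small subunit, Mrps9 (chr1:42851233-42905683, plus strand), a conserved protein of its head, had 43.8, 45.8 and 54.9 CPM as lowest, median and highest in western NaKtide, against 34.9, 25.8, 28.2, 30.3 and 39.1 CPM in western. The log2 fold change was 0.58 (SE 0.14, edgeR adjusted p = 0.0059). Mrps26 (chr2:130563742-130568695, plus strand), a mitochondria-specific protein, had 64.2, 67.8 and 93.1 CPM in western NaKtide, in the same order, against 57.8, 40.1, 44.4, 44.9 and 57.5 CPM in western. It rose by 0.57 (SE 0.15, edgeR adjusted p = 0.00769). In Mrps9 and Mrps26 the groups did not overlap. Mrps21, the most abundant of the 78 genes per length, averaged 76.5 ± 7.87 CPM in western NaKtide and 44.4 ± 14.5 CPM in western, a rise of 0.78 (SE 0.22, edgeR adjusted p = 0.0106), also without overlap.

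Mrps22 (chr9:98588730-98601660, minus strand) was the gene that fell. This mitochondria-specific protein of the small subunit is known in humans from mutations that cause a severe mitochondrial disease. Its level was 14.1, 14.8 and 17.8 CPM as lowest, median and highest in western NaKtide, against 23.3, 18.7, 15.2, 21.5 and 20.5 CPM in western. Western library 3 lay within the western NaKtide range, and the log2 fold change was -0.38 (SE 0.14, edgeR adjusted p = 0.0456). The call was kept under 8 of 21 alternatives in which the comparison was refitted, with the value between -0.46 and -0.30 in all of them.

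**Figure D3:**
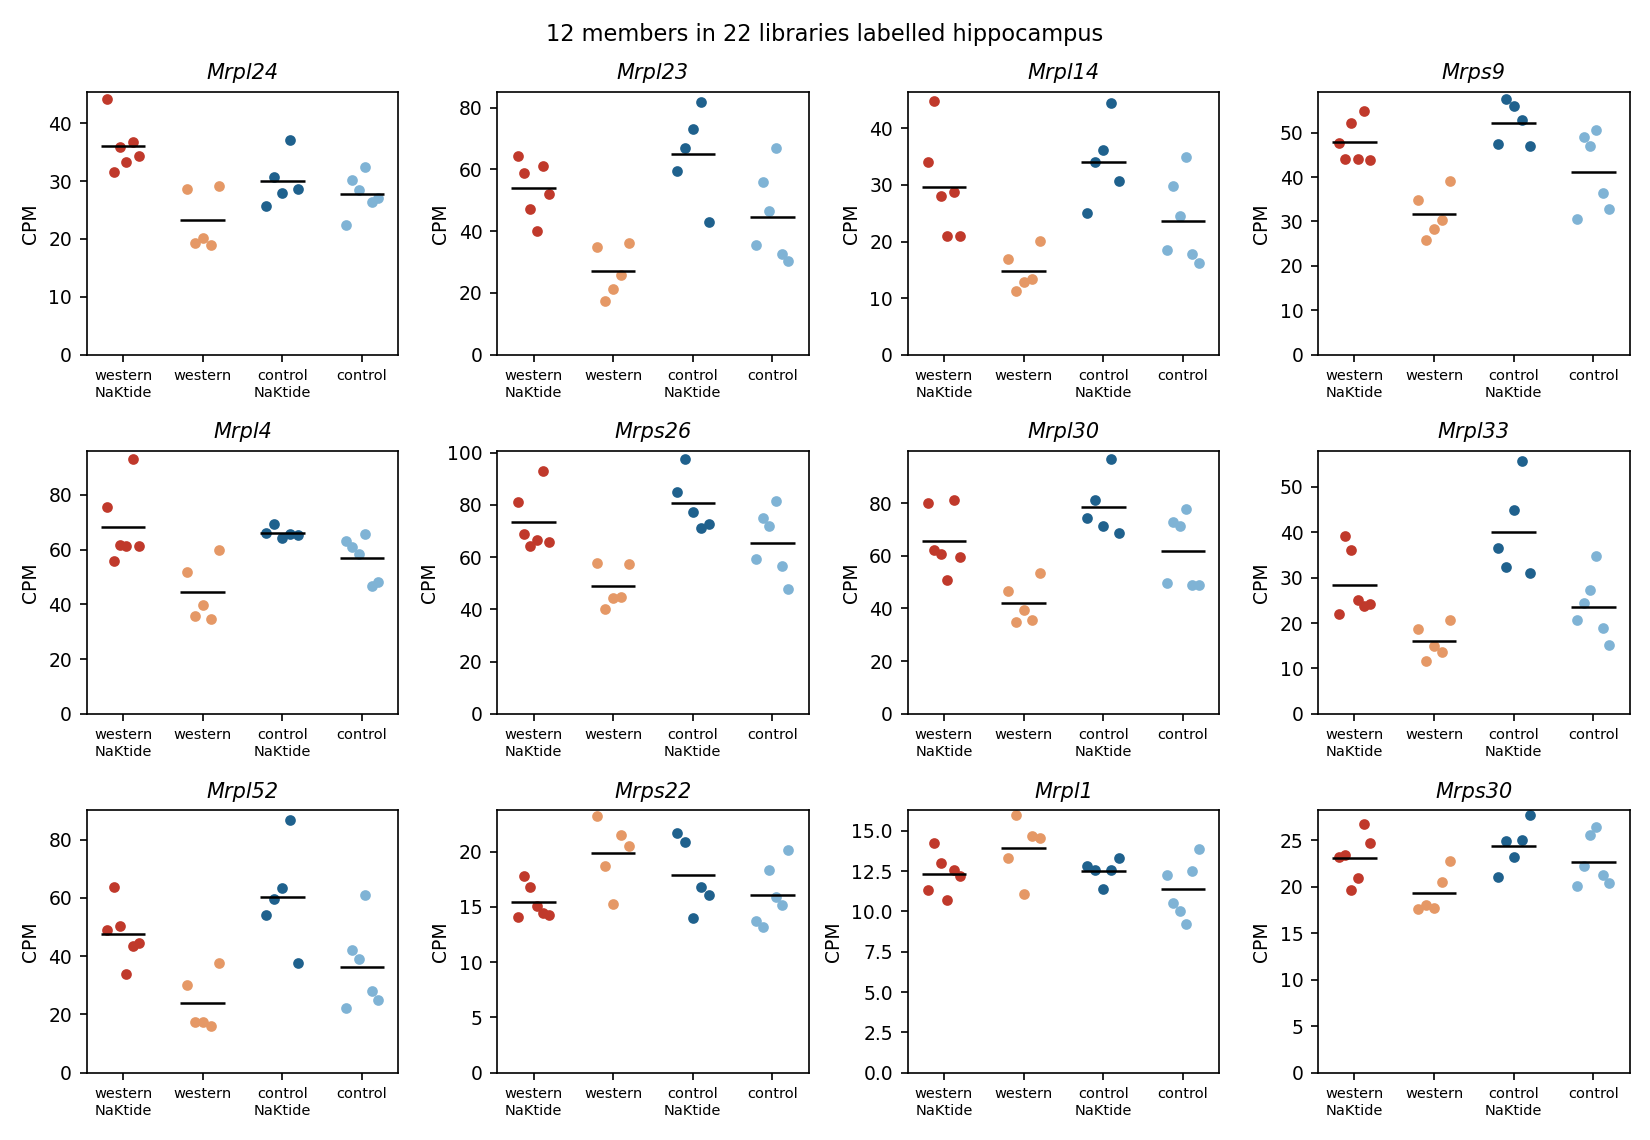
Level in CPM (y axes, each from 0) of 12 of the genes in the 22 libraries labelled hippocampus, by group (x axes). Points are libraries and bars are group means. In Mrpl24, Mrpl23, Mrpl14, Mrps9, Mrps26 and Mrpl33 all 6 western NaKtide libraries lie above all 5 western libraries, while Mrps22 averages 15.4 CPM in western NaKtide and 19.9 CPM in western.

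The other 35 tested genes were not called. Their fold changes ran from -0.18 in Mrpl1, a conserved large subunit protein, to 0.64 in Mrps6 (chosen here as the end of that range, SE 0.27, edgeR adjusted p = 0.0679), a conserved small subunit protein. Mrpl1 averaged 12.4 ± 1.27 CPM in western NaKtide and 13.9 ± 1.83 CPM in western, and Mrps31 16.2 ± 1.93 CPM in western NaKtide and 15.8 ± 2.71 CPM in western. Mrps36 had 0.43 (SE 0.20, edgeR adjusted p = 0.0899), and its 3 pseudogenes held 1678, 2233 and 0 counts in all, so its counts are uncertain, as are those of Mrpl48, whose pseudogene held 2870. In the annotation 36 of the 78 genes overlap no other gene, 36 overlap a gene on the opposite strand and 13 one on the same strand. The kit marks strand, but the strand setting of the counting is not given, so reads of the overlapping genes may be mixed.

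The count of calls rested on western libraries 2, 3 and 4. With library 2 left out 17 genes rose and none fell, while 10.6% of all genes were called higher. With library 3 left out 23 rose and 1 fell (11.8% of all genes higher), and with library 4 left out 22 rose and none fell (11.2% of all genes higher). Mrpl11, Mrpl24, Mrpl30, Mrpl33, Mrpl58, Mrps9, Mrps16 and Mrps26 were called under all 21 alternatives run for this comparison. The summed level of the 78 genes was 2032, 2103 and 2167 CPM in western libraries 2, 3 and 4, and 2758 and 2972 CPM in libraries 1 and 5. It was 2775 to 3726 CPM in western NaKtide.

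Markers of cell types and of other brain regions moved in the same comparison, where 17.4% of all genes were called higher and 16.3% lower. Of 9 microglia markers 6 rose, and their sum ran from 483 to 671 CPM in western NaKtide and from 276 to 444 CPM in western. Of 10 markers of striatal neurons 6 rose, with sums of 275 to 5347 CPM in western NaKtide and 211 to 581 CPM in western, and 4 of 5 blood cell markers rose, with sums of 737 to 3462 CPM against 240 to 1245 CPM. Of 9 dentate granule cell markers 5 fell, with sums of 104 to 226 CPM in western NaKtide and 201 to 602 CPM in western, and of 9 hippocampal pyramidal cell markers 3 fell, with sums of 228 to 610 CPM against 584 to 1134 CPM. Of 9 pan-neuronal markers 3 fell, with sums of 3326 to 6787 CPM (median 3970) in western NaKtide and 5079 to 7530 CPM (median 6961) in western. Of 8 oligodendrocyte markers 1 rose, with sums of 2296 to 22304 CPM (median 11474) in western NaKtide and 3608 to 10628 CPM (median 5024) in western. Of 9 tested markers of cerebellar granule and Purkinje cells 4 fell, with sums of 107 to 270.4 CPM in western NaKtide and 172 to 668 CPM in western. Of 7 astrocyte markers 1 rose and 3 fell, with sums of 1713 to 3634 CPM in western NaKtide and 1898 to 2451 CPM in western. Of 6 tested hypothalamus markers 2 rose, with sums of 5.63 to 177 CPM in western NaKtide and 0.978 to 30.5 CPM in western. No marker was called in the lists for thalamus, choroid plexus, pituitary and endothelial cells. Of all these lists, only the pituitary marker Cga was at 0 in every library of both groups. Their part in the change of the ribosomal genes was not tested.

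Transcript length moved with the level of these genes. Their principal transcripts had a median length of 1302 bases, against 2766 bases for all genes tested, and a shorter transcript went with a larger fold change among the 77 genes (Pearson r = -0.535, Spearman rho = -0.566, across genes that share the same libraries and are not independent). In the shortest quartile of all genes tested, 40.8% rose and the median log2 fold change was 0.51. Of the 47 ribosomal genes in this quartile 32 rose, with a median of 0.53. In the second quartile the medians were alike, 0.15 for 11 ribosomal genes and 0.15 for all genes, and 5 of the 11 rose, against 16.4% of all genes. In the third quartile 8.28% of all genes rose, with a median of -0.10, while 3 of 14 ribosomal genes rose, with a median of 0.26. In the longest quartile, the median was 0.06 for 5 ribosomal genes and -0.36 for all genes.

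**Figure D4:**
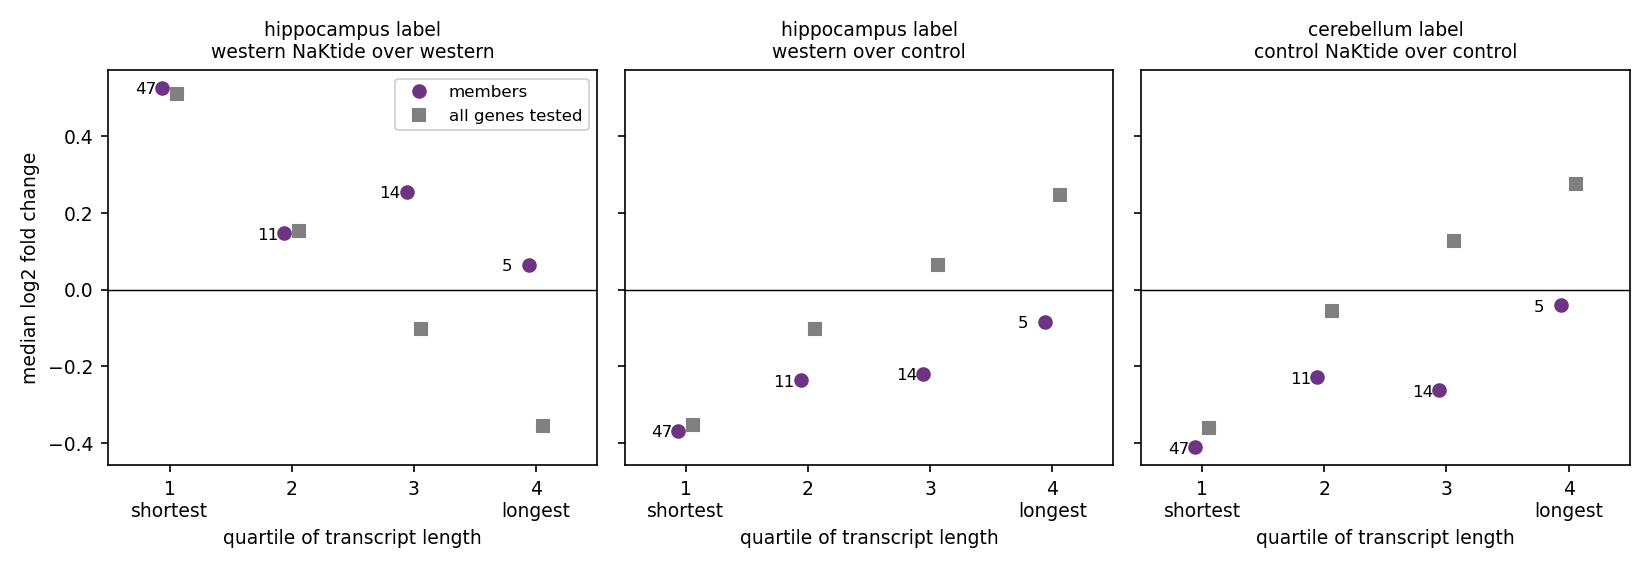
Median log2 fold change (y axis) of the ribosomal genes and of all genes tested, by quartile of principal transcript length (x axis), in 3 comparisons. The number beside each purple point is the number of ribosomal genes in the quartile. In the shortest quartile of the first panel both medians are near 0.5 (0.53 and 0.51), and in the third quartile they are 0.26 and -0.10.

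When a smooth trend of each library with principal transcript length and GC content was taken out, 21 ribosomal genes rose and 1 fell, of which 12 were among the 41. Their median log2 fold change was then 0.15, against 0.05 over all genes, of which 15.7% were called either way. With the length of all annotated exons in place of the transcript, 26 rose and none fell, 18 of them among the 41, with a median of 0.28 and 21.6% of all genes called. In both of these fits and without the correction 11 genes rose: Mrpl11, Mrpl24, Mrpl30, Mrpl33, Mrpl48, Mrpl58, Mrps9, Mrps16, Mrps25, Mrps26 and Mrps33.

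Across libraries, the mean log2 deviation of the 78 genes from their own average was set beside the slope of log2 level on log10 transcript length over all other genes of the library. Pearson's r was -0.975 over the 42 libraries (Spearman's rho -0.962), -0.983 over the 22 labelled hippocampus (rho -0.972) and -0.979 over the 20 labelled cerebellum (rho -0.985). After subtraction of the group means it was -0.965, so the relation also held among libraries of the same group. Without the 2 libraries farthest from the median slope it was -0.967 over all libraries. Within the 6 hippocampus western NaKtide libraries r was -0.925, and -0.328 without the 2 farthest, so there it rested on those 2. Within the 6 hippocampus control libraries it was -0.99, and -0.995 without the 2 farthest. Western libraries 2, 3 and 4 of the hippocampus label had the 3 highest slopes, 1.02, 0.90 and 0.86, where a positive slope means that long transcripts were high relative to short ones. Slopes ran from -0.60 to 0.19 in hippocampus western NaKtide and from 0.21 to 1.02 in hippocampus western. The 2 measures come from the same libraries and share their depth and RNA quality, and why they move together was not tested.

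**Figure D5:**
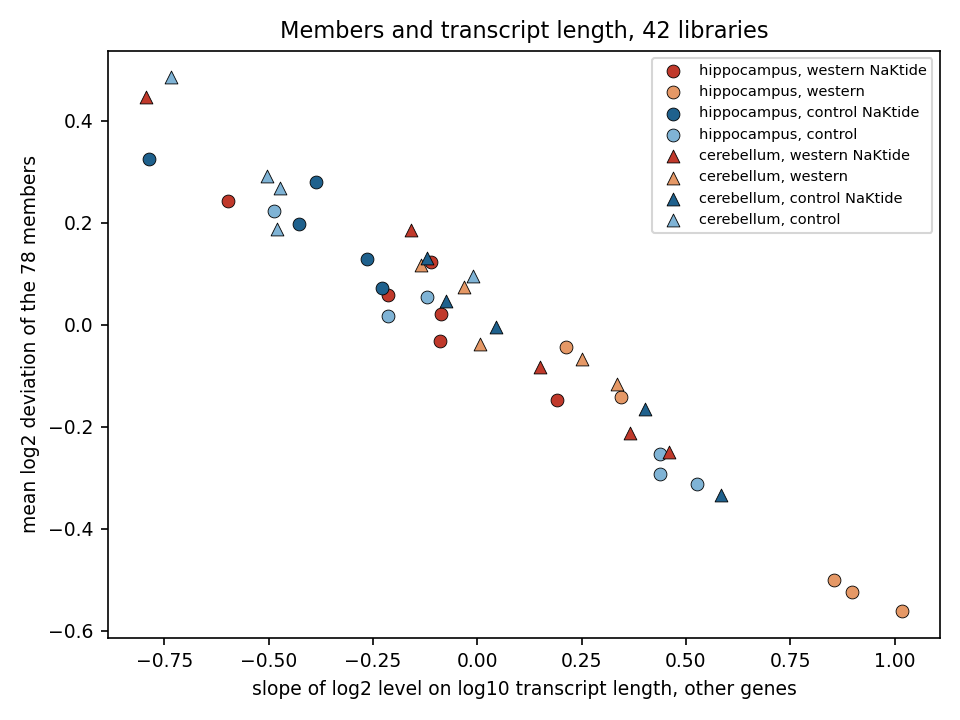
Mean log2 deviation of the 78 genes (y axis) against the slope of log2 level on log10 transcript length of all other genes (x axis) in 42 libraries, with a colour for each group and circles for the hippocampus label and triangles for the cerebellum label. The points lie along a falling line (r = -0.975), with hippocampus western libraries 2, 3 and 4 at its lower right end.

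Promoters of these genes are known for sites of the factors NRF1, ETS family proteins (GABP among them) and YY1, which control many nuclear genes for mitochondrial proteins. RefSeq promoter windows (GRCm38.p6, 250 bases before to 50 bases after the start) were found for 69 of the 78 genes and searched on both strands. The letters searched for NRF1 were GCGC and TGCGC with any base between them, and they were in 13 of 69 windows (18.8%), against 7.17% of all 17492 windows. The ETS letters CCGGAAG were in 26 (37.7%), against 12.9%, and the YY1 letters AAGATGGC in 12 (17.4%), against 3.57%. At least 1 of the 3 was in 43 windows (62.3%), against 21.0% of all. The genes that rose on NaKtide held one in 23 of 36 windows and the other ribosomal genes in 20 of 33. A match is only a run of letters, and binding was not measured.

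Windows of 4 genes are printed 5′ to 3′ on the strand of the gene, with matches in capitals, to show these letters in 3 genes that rose and in the gene that fell. Mrps9 (chr1:42850983-42851282, plus strand) has 1 NRF1 match, and Mrps26 (chr2:130563507-130563806, plus strand) has 1 ETS match and 2 NRF1 matches that overlap each other. Mrpl52 (chr14:54426659-54426958, plus strand), with the largest rise, has 2 ETS matches on the reverse strand. Mrps22 (chr9:98601630-98601929, minus strand), the gene that fell, has 1 ETS match.
Mrps9: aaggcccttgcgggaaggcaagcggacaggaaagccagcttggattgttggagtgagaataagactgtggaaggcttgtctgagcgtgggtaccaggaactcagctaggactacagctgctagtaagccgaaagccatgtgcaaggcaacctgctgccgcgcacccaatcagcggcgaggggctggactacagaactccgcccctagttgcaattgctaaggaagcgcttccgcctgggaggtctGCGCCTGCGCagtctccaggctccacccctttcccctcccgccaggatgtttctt
Mrps26: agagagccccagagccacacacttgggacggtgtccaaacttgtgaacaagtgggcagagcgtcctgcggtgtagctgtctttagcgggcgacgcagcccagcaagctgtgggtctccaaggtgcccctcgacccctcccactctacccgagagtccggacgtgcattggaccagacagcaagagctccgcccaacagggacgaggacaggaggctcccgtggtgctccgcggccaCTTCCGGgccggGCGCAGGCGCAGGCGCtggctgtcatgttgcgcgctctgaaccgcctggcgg
Mrpl52: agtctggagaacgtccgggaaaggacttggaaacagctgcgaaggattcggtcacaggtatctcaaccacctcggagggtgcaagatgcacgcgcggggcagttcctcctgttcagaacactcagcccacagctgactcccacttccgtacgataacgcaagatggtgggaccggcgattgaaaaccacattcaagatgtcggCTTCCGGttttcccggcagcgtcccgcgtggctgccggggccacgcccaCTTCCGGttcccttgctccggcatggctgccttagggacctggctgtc
Mrps22: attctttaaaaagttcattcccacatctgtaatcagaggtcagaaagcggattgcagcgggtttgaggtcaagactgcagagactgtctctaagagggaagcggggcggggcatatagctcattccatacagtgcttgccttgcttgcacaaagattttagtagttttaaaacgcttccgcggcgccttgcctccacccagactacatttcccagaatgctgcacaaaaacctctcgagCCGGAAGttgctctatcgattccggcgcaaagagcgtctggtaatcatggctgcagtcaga

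Other genes of mitochondrial gene expression were described in the same comparison by their counts. Of all genes tested in it, 17.4% were called higher and 16.3% lower. Of 5 mitoribosome proteins whose symbols lie outside the rule, 3 rose, with a median log2 fold change of 0.56. Among them were Gadd45gip1, at 0.69 (SE 0.18, edgeR adjusted p = 0.00784), and Aurkaip1, at 0.62 (SE 0.18, edgeR adjusted p = 0.013). Of 11 tested mitochondrial translation factors only Gfm2 rose, at 0.50 (SE 0.19, edgeR adjusted p = 0.0403), an elongation factor G homologue that recycles ribosomes. The median of this list was near 0, and Gfm1, the elongation factor that moves the ribosome along the messenger, had -0.31 (SE 0.13, edgeR adjusted p = 0.0571).

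The counts of the next lists are likewise to be read beside 17.4% of all genes called higher and 16.3% called lower. Of 22 factors of mitoribosome assembly and rRNA modification 5 rose and none fell, with a median of 0.10. Mpv17l2, an inner membrane protein needed for assembly, rose by 0.86 (SE 0.26, edgeR adjusted p = 0.0147), and Mtg2, a GTPase of the large subunit, by 0.58 (SE 0.18, edgeR adjusted p = 0.0199). Of 20 mitochondrial aminoacyl-tRNA synthetases and their helpers 5 rose and 1 fell, with a median of 0.24. Sars2, which charges the serine tRNAs, rose by 0.78 (SE 0.22, edgeR adjusted p = 0.0111). Mars2, which charges the methionine tRNA, averaged 5.62 ± 1.504 CPM in western NaKtide and 10.9 ± 1.33 CPM in western, a log2 fold change of -0.97 (SE 0.22, edgeR adjusted p = 0.00413). Of 13 genes of mitochondrial transcription and RNA processing 3 rose and 2 fell, Trmt10c, a subunit of mitochondrial RNase P, at -0.58 (SE 0.15, edgeR adjusted p = 0.00719), and Tfb2m, a transcription factor of the organelle, at -0.49 (SE 0.13, edgeR adjusted p = 0.00781).

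The cytosolic ribosomal proteins had a larger change than the mitochondrial ones, with 73 of 80 tested genes higher and none lower and a median log2 fold change of 0.90. The lists were not compared at like transcript length. In the shortest quartile of transcript length 40.8% of all genes rose, with a median of 0.51. Rpl29 rose by 0.97 (SE 0.19, edgeR adjusted p = 0.00258) and Rps29 by 1.18 (SE 0.25, edgeR adjusted p = 0.00302). Nuclear genes of the respiratory chain and ATP synthase had 51 of 81 higher and 3 lower, with a median of 0.65. Uqcrq, of complex III, rose by 0.84 (SE 0.21, edgeR adjusted p = 0.00688), and Cox6a1, of complex IV, by 0.72 (SE 0.18, edgeR adjusted p = 0.00694). Of the 13 protein genes of the mitochondrial genome 3 rose, with a median of 0.61, among them mt-Co1 by 0.95 (SE 0.27, edgeR adjusted p = 0.0116) and mt-Co2 by 1.00 (SE 0.28, edgeR adjusted p = 0.0119). Of the ribosome's own RNAs, mt-Rnr1 averaged 3811 ± 1337 CPM in western NaKtide and 2483 ± 761 CPM in western, a log2 fold change of 0.61 (SE 0.24, edgeR adjusted p = 0.0564). Neither it nor mt-Rnr2, at 0.56 (SE 0.26, edgeR adjusted p = 0.103), passed, and a kit made for mRNA measures them only in part.

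Western diet without NaKtide in libraries labelled hippocampus gave no call among the 77 genes or among all 16442 genes tested (0.0% called by edgeR). At an unadjusted p under 0.05 there were 30 of the 77 genes and 4046 of all genes (24.6%). The median log2 fold change of the ribosomal genes was -0.30, against -0.03 for all genes, with 6 of 77 positive. DESeq2 called 2 of the genes, both lower, and 5.9% of all genes. Mrpl30 had the smallest p, with 46.5, 34.8, 39.6, 35.5 and 53.3 CPM in western, against 48.7, 60.5 and 77.7 CPM as lowest, median and highest in control. The groups overlapped through western library 5, and the log2 fold change was -0.57 (SE 0.17, edgeR adjusted p = 0.0946). This comparison shares the western libraries with the one above. Leaving out 4 libraries that express the X-inactivation RNA Xist, hippocampus control 5 and 6 among them, gave 15 genes that fell, where 13.4% of all genes were called. A fit with 2 surrogate variables gave 28, with 18.0% of all genes called.

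NaKtide on control diet in the hippocampus label also gave no call (0.0% of 16442 genes by edgeR, and none of the ribosomal genes by DESeq2, which called 0.0365% of all genes). The median of the ribosomal genes was 0.31, against 0.01 for all genes, 75 of 77 values were positive, and 36 had an unadjusted p under 0.05, as did 2720 of all genes (16.5%). Mrps35, a mitochondria-specific small subunit protein, had the smallest p. It had 30.8, 38.4, 44.0, 49.0 and 31.6 CPM in control NaKtide, against 20.9, 25.04 and 29.3 CPM as lowest, median and highest in control. The groups did not overlap, and the log2 fold change was 0.64 (SE 0.17, edgeR adjusted p = 0.21). Western NaKtide relative to control NaKtide had a median of -0.21 and 10 of 77 genes at an unadjusted p under 0.05, near the 10.7% of all genes. None of the ribosomal genes was called by either tool, with 0.0% of all genes called by edgeR and 0.226% by DESeq2. Mrpl44, a ribonuclease III relative in the large subunit, had the smallest p there, at -0.43 (SE 0.15, edgeR adjusted p = 0.377). The NaKtide effect on western diet less that on control diet had a median of 0.12. It was called in none of the ribosomal genes by edgeR or DESeq2 and in 0.0% of all genes by edgeR and 1.27% by DESeq2, and had an unadjusted p under 0.05 in 2, against 14.6% of all genes, of which Mrps22 had the smallest (-0.54, SE 0.20, edgeR adjusted p = 0.237).

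In libraries labelled cerebellum no ribosomal gene was called in any of the 5 comparisons by edgeR. NaKtide on western diet had a median log2 fold change of 0.04, against 0.00 for all genes, with 1 gene at an unadjusted p under 0.05, against 4.16% of all genes, and 0.0% of 16338 genes called. That gene was Mrpl1, with 17.1, 15.3, 16.4, 12.8 and 13.4 CPM in western NaKtide, against 10.7, 12.1, 14.0, 12.5 and 11.1 CPM in western (log2 fold change 0.31, SE 0.14, edgeR adjusted p = 1.00). The groups overlapped, through western library 3. Western diet without NaKtide had a median of -0.31, against 0.05 for all genes, with 31 genes at an unadjusted p under 0.05, as had 3192 of all genes (19.5%), and 0.00612% of all genes called. Mrpl13, a conserved large subunit protein, had 53.3, 45.6, 53.5, 48.5 and 49.2 CPM in western, against 79.8, 102.2, 80.4, 78.2 and 55.8 CPM in control. The groups did not overlap, control library 5 was the low one of its group, and the log2 fold change was -0.66 (SE 0.20, edgeR adjusted p = 0.164).

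NaKtide on control diet in the cerebellum label had a median of -0.37, against 0.02 for all genes, and 40 genes at an unadjusted p under 0.05, as had 4816 of all genes (29.5%), with 0.00612% of all genes called by edgeR. DESeq2 called 17 of the ribosomal genes lower and 10.1% of all genes, while it called none of the ribosomal genes in the other 4 comparisons. Its calls among all genes there were 0.00613% for NaKtide on western diet and for western NaKtide against control NaKtide, 0.963% for western diet and 0.11% for the difference of the NaKtide effects. Mrpl41 had 63.2, 50.2, 61.9, 51.9 and 43.8 CPM in control NaKtide, against 91.4, 100.3, 82.0, 87.5 and 64.7 CPM in control, a log2 fold change of -0.65 (SE 0.18, edgeR adjusted p = 0.0908). The groups did not overlap. Without control library 5, 27 of the genes fell and 1 rose in this comparison, while 26.5% of all genes were called either way. In the comparison of western with control 5 then fell, while 5.09% of all genes were called. Western NaKtide relative to control NaKtide had a median of 0.11 and 1 gene at an unadjusted p under 0.05, against 2.42% of all genes, with 0.0% of all genes called. It was Mrps31 (0.30, SE 0.13, edgeR adjusted p = 0.999). The NaKtide effect on western diet less that on control diet had a median of 0.38 and 24 genes at an unadjusted p under 0.05, as had 2844 of all genes (17.4%), with 0.00612% of all genes called. Mrpl32, whose processing by a protease of the inner membrane is known to gate ribosome assembly, had the smallest p there (0.56, SE 0.19, edgeR adjusted p = 0.251).

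The difference of the NaKtide effect on western diet between the region labels was tested in a fit of all 42 libraries. The fit took libraries of the 2 regions as independent, and the sample labels do not say whether they came from the same mice. The hippocampus label less the cerebellum label had a median of 0.40 over the ribosomal genes, against 0.10 over all genes. Mrps9 and Mrpl23 were called higher, 2 of 77, while 8.84% of all 17088 genes tested were called, 4.39% higher and 4.44% lower. In Mrps9 the NaKtide effect was 0.58 in the hippocampus label and -0.07 in the cerebellum label, a difference of 0.66 (SE 0.20, edgeR adjusted p = 0.0327). In Mrpl23 it was 0.99 in the hippocampus label and -0.08 in the cerebellum label, a difference of 1.07 (SE 0.32, edgeR adjusted p = 0.0332). Each of these 2 calls was kept in 16 of 31 alternatives. Without cerebellum western NaKtide library 3, whose summed level of 4367 CPM was the highest of its group, 25 ribosomal genes and 23.6% of all genes were called. Without some of the other libraries no ribosomal gene was called.

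Between the region labels in control libraries, 7 of 77 genes were lower in the hippocampus label and none higher, while 1.24% of all 17088 genes tested were called lower, 0.96% higher and 2.2% either way. The 7 were Mrpl13, Mrpl41, Mrpl51, Mrps10, Mrps14, Mrps16 and Mrps35, with log2 fold changes from -0.82 to -0.49. Few alternatives kept these calls, from 4 of 21 in Mrps14 to 7 of 21 in Mrps10 and Mrps35. Mrps35 had 20.9, 25.04 and 29.3 CPM as lowest, median and highest of the 6 hippocampus libraries, against 37.0, 51.4, 37.8, 43.0 and 30.6 CPM in the cerebellum libraries, without overlap (log2 fold change -0.67, SE 0.16, edgeR adjusted p = 0.0353). The median over the ribosomal genes was -0.36, against 0.01 over all genes. Without cerebellum control library 5, 38 ribosomal genes and 25% of all genes were called. Without hippocampus control library 4 it was 37 ribosomal genes and 14.7% of all genes, and without hippocampus control library 1, among others, no ribosomal gene.

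The genes varied together across libraries. The correlation of each gene's log2 level with the mean of the other genes over the 42 libraries had a median of 0.857 and a highest value of 0.976, was above 0.5 for 65 of 78 genes and below 0 for 5. After the trends with principal transcript length and GC content were taken out the median was 0.695, with 51 of 77 genes above 0.5 and 6 below 0. The same was not computed for other genes of like length, so these values cannot show a trait of the ribosomal genes alone. Mrpl3, a conserved large subunit protein chosen here after its values were seen, had the lowest correlation before that correction (-0.413). It averaged 49.9 ± 3.75 CPM in hippocampus western NaKtide and 55.7 ± 1.53 CPM in hippocampus western, and 42.4 ± 7.08 CPM in hippocampus control NaKtide and 51.5 ± 4.19 CPM in hippocampus control.  Mrpl46 and Mrps11, 1 protein of each subunit and named here for their position, are neighbours on chromosome 7 that overlap head to head (chr7:78775236-78783531 and chr7:78783119-78792989). On NaKtide in the hippocampus label Mrpl46 rose by 0.53 (SE 0.18, edgeR adjusted p = 0.0286), while Mrps11 had 0.40 (SE 0.17, edgeR adjusted p = 0.081).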

How the data were processed

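Per the labels' protocols, frozen mouse brain tissue gave the RNA, and the libraries came from an mRNA kit that marks strand. Trimmomatic 0.38, HISAT2 2.1.0, DESeq2 1.20.0 and the build GRCm38 are named per the submitters' processing notes, while for the counter, its strand setting and its annotation a name is not given in the sources used here. Gene counts, whole numbers, were deposited by the authors with a normalized signal that equals the count divided by 1 size factor a library, and FPKM, which equals that signal times 1 factor a gene. Only the counts were tested, and the deposited FPKM served for levels between genes.

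The members, lists and tests were chosen with earlier results of these data known. Counts were fitted with edgeR 4.0.16 (TMM factors, filterByExpr with a minimum count of 10, quasi-likelihood F test) in R 4.3.3. The 4 groups of a region label were fitted together, and all 8 groups where the region labels were compared, in 12 comparisons. P-values were adjusted by Benjamini-Hochberg over all genes tested, with a threshold of 0.05. CPM used TMM factors over all 42 libraries, except for Gabra6 and Prox1 in the check of the region labels, where library totals alone were used. Symbols, positions, lengths and GC content came from GENCODE M21 (GRCm38), which named 54165 of 54232 genes, and promoter windows from RefSeq (GRCm38.p6).

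Named genes were the 8 called members with the smallest p, the 3 largest rises and those that fell in western NaKtide against western with the hippocampus label. The member with the smallest p in each other comparison was added, as were the 3 highest and 2 lowest tested members by FPKM, the 2 genes with the smallest p of each other list, and Mrpl12, Mrps30, Mrps18a, Mrpl58 and Mrps36 for their role. A gene named for another reason is marked as such or belongs to a count given in full.

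Alternatives were DESeq2 1.42.0, its size factors in edgeR, no low-count filter, the compared groups alone, the replicate number as a block, 4 Xist-expressing libraries left out, hippocampus control 5 and 6 summed, surrogate variables (sva 3.50.0) and each library left out in turn. A trend with exon length and GC content was also removed by a spline with 4 degrees of freedom, over genes that passed the low-count filter. The same with principal transcripts was added after seeing the data. Genes with at least 420 counts over all libraries served for the library slopes with transcript length. They also served for the trend taken out before the correlations between genes, which used cubic terms in place of a spline. Hippocampus control libraries 5 and 6 were the most alike pair of the replicates compared, with a chi-square that averaged 2.45 a gene, above sampling noise. The next pair, hippocampus western 2 and 3, averaged 7.69. Whether control 5 and 6 came from 1 animal is not known, and they were kept apart. With the 2 summed, 42 ribosomal genes were called in western NaKtide against western with the hippocampus label. The calls between the region labels in control were lost, as given below. The fits were also run on simulated counts. These were drawn for each gene independently, without a shared trend with transcript length, so they cannot show how the fits behave under such a trend.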

Additional observations from a re-analysis of the deposited data

Results flagged for a closer look

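Among the named genes and their sum, 192 gene and group combinations were searched for a library far from the rest of its group, and 8 were found, where chance gives about 1 in 20. With the hippocampus label, Mrps35 had 37.7 CPM in western NaKtide library 2, against 29.8 CPM in the next library of that group. Mrps31 had 11.4 CPM in control NaKtide library 3, below the next at 16.7 CPM, and 19.6 CPM in control library 4, above the next at 15.9 CPM. With the cerebellum label, western NaKtide library 3 was highest for Mrps26, at 109 CPM with the next at 60.8 CPM, and for Mrps30, at 37.1 CPM with the next at 25.2 CPM. That library also had the highest summed level of its group. Mrpl52 had 47.8 CPM in cerebellum western library 1, above the next at 33.4 CPM. In cerebellum control, Mrps26 had 88.0 CPM in library 2, above the next at 72.1 CPM, and Mrpl1 had 16.8 CPM in library 5, above the next at 12.1 CPM.

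The NaKtide effect on western diet differed between the region labels in Mrpl23, by 1.07 on the log2 scale (SE 0.32, edgeR adjusted p = 0.0332), and in Mrps9, by 0.66 (SE 0.20, edgeR adjusted p = 0.0327). No other ribosomal gene was called, while 8.84% of all 17088 genes tested were called, 4.39% higher. Each of these calls was kept in 16 of 31 alternatives. Mrpl23 was higher in 6 of 6 hippocampus western NaKtide libraries than in every western library, as was Mrps9.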

How the results depend on the processing

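Of 113 alternatives over the 12 comparisons, those that leave out 1 library apart, 90 kept the number of ribosomal genes called within 1.5 times and 23 did not. Most of the comparisons called no ribosomal gene, and there a refit without a call counts as kept. The 90 therefore do not measure how stable the calls were. For western NaKtide against western with the hippocampus label, 42 genes were called in all, and 27 without the low-count filter, 26 with the exon length and GC trend removed, 22 with the transcript trend removed, and 17 to 48 with 1 library left out. Of all genes, 5542 were called in the main fit, 4426 without the filter, and 3546 and 2577 with the exon and transcript trends removed. With 1 library left out, 3807 to 6116 of all genes were called. Within a region label, replicate numbers did not pair libraries (median correlation of deviations -0.10 in the hippocampus label and -0.06 in the cerebellum label). Pairs between the region labels, as from the same mouse, were not examined. The replicate block called 40 ribosomal genes in western NaKtide against western with the hippocampus label, where it called 5221 of all genes. It called 0 ribosomal genes between the region labels in control, 8 in the region difference, and 0 in the other 9 comparisons.

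Western against control with the hippocampus label called 0 genes, against 2 with DESeq2, 15 without the Xist-expressing libraries, 28 with surrogate variables and 0 to 1 with a library left out. With the cerebellum label, the same comparison called 0 to 5 with a library left out, and control NaKtide against control called 17 with DESeq2 and 0 to 28 with a library left out. Between the region labels in control, 7 genes were called, against 25 with DESeq2 (10.9% of all genes called), 14 and 12 with the exon and transcript trends removed (7.4% and 6.55% of all genes), 0 without the filter, with the compared groups alone, without the Xist-expressing libraries, with libraries 5 and 6 summed or with surrogate variables, and 0 to 38 with a library left out. The region difference called 2, against 5 with DESeq2 (12.7% of all genes), 1 and 0 with the exon and transcript trends removed (3.47% and 2.67%), 0 without the filter, with the compared groups alone or without the Xist-expressing libraries, and 0 to 25 with a library left out. The causes were not tested.

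Of 911 refits of single named genes, 708 kept direction and side of the threshold, 175 lost the call, 15 gained one and 13 changed sign, all 13 in western NaKtide against western with the hippocampus label. The 708 include genes that were not called and stayed so, and they do not measure how stable the calls were. With the exon trend removed Mrpl44 had -0.064, Mrpl1 0.17 and Mrpl3 0.17, and with the transcript trend removed Mrpl44 had -0.0597, Mrpl1 0.28, Mrpl3 0.20 and Mrps18a -0.028. Mrps31, at 0.024, had -0.0076 with the replicate block, -0.037 without the Xist-expressing libraries, and -0.040 to 0.083 with 1 library left out, below 0 without western library 2 or 4 or western NaKtide library 2 or 6. Low depth limits Mrpl53 most, at 212 counts over all libraries.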
